A study of Mus musculus with 7 samples.

Results

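The 10 genes described here, Nr4a1, Nr4a2, Nr4a3, Dusp1, Dusp2, Dusp5, Dusp6, Zfp36, Zfp36l1 and Ier3, encode inducible regulators that limit signalling after a cell is stimulated. They were taken as a list of symbols. Like the related lists below, it was chosen with earlier results of these data known, so its counts set beside all genes are descriptions. All 10 were found among the 55385 gene IDs of each count table and among the 15448 genes with enough reads to test. Messenger RNA was measured in macrophages sorted by flow cytometry from gliomas grown in the brains of C57BL/6 mice after injection of 100000 QPP7 cells, a mouse glioma line. The QPP7 cells carried a hairpin against Chi3l1, the gene of the secreted chitinase-3-like-1 protein (shChi3l1, 3 libraries), or the control hairpin shSC (4 libraries). The hairpin sat in the tumour cells, and the comparison asks how macrophages differed between the tumours. The labels give no age or sex and do not say that each library came from its own mouse, so each p-value reflects only how far libraries of a hairpin varied, which may be partly technical.

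These genes belong to the primary response of macrophages, in which a stimulus such as a Toll-like receptor ligand activates MAP kinases and NF-kB and switches on transcription without new protein synthesis. NR4A proteins are orphan nuclear receptors that act as transcription factors without a known natural ligand and dampen inflammatory gene expression in macrophages. DUSP proteins are dual-specificity phosphatases that inactivate MAP kinases, ZFP36 proteins bind AU-rich elements in messenger RNAs and recruit the deadenylation machinery, and IER3 is a short-lived protein linked to NF-kB, ERK signalling and cell survival. Their transcripts are short-lived as well. All tumours were digested with collagenase for 15 min at 37 °C before sorting, and the antibodies of the sort are not named.

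Reads assigned to genes numbered 23174989 to 36502664 in the shChi3l1 libraries and 19169129 to 32590781 in the shSC libraries. Chi3l1 itself, listed as Chil1, had 28, 31 and 7 reads in shChi3l1 replicates 1, 2 and 3 and 18 to 28 reads in the shSC libraries, which says little of the hairpin because it acted in other cells. All 9 macrophage markers were detected in every library, and their summed level was 33414 to 50812 CPM (counts per gene scaled to a common library total) in shChi3l1 and 23066 to 35122 CPM in shSC libraries. Both replicate 1 libraries stood apart from the others. Of the tested genes, 19.6% were lower and 20.5% were higher in both replicate 1 libraries than in all of the other 5. Genes with over 5000 exon bases took 12.6% of counts in shChi3l1 1 and 14.8% in shSC 1, against 16.8% to 20.7% in the other 5 libraries. Ribosomal protein genes took 6.06% of counts in shChi3l1 1, 5.61% in shSC 1 and 4.45% in shSC 4, against 1.92% to 3.23% in the other 4, and mitochondrially encoded genes took 0.407% to 1.30% in shChi3l1 and 0.666% to 1.79% in shSC libraries. Markers of other cells also differed between libraries. The summed level of 8 microglial markers was 3716 CPM in shChi3l1 3, 958 and 1660 CPM in shChi3l1 1 and 2, and 754 to 1310 CPM in shSC libraries. In shChi3l1 3 the 6 B-cell markers summed to 1798 CPM, against 149 to 169 CPM in the other shChi3l1 and 78.7 to 490 CPM in the shSC libraries. The 10 tumour and glial markers summed to 294 CPM in shSC 4 and 43.1 to 109 CPM elsewhere. Summed T-cell markers ran from 38.7 to 212 CPM in shChi3l1 and from 27.8 to 286 CPM in shSC libraries. The 4 NK-cell markers summed to 92.3 to 1237 CPM in shChi3l1 and 125 to 956 CPM in shSC libraries, and the 6 dendritic-cell markers to 537 to 832 CPM in shChi3l1 and 218 to 1314 CPM in shSC libraries. Neutrophil, endothelial and fibroblast or pericyte markers stayed at 94.8 CPM or less in every library, and 4 of 6, 1 of 7 and 5 of 7 of them were at 0 in at least 1 library. The most abundant gene was Lyz2 for macrophages, Ighm for B cells and Gzma for NK cells. In sorted bulk samples fewer cells of a type and less RNA per cell cannot be told apart.

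The feedback genes were well expressed, and together they took 0.329% to 0.601% of each library's reads. Levels of different genes were compared as CPM per kilobase of exon. Dusp1 was the highest, at 824 CPM per kilobase on average in shChi3l1 and 612 in shSC libraries, and lay above the next gene, Zfp36, in all 7 libraries. Zfp36 averaged 392.1 ± 82.4 and Ier3 356 ± 171 CPM per kilobase (SD, n = 7), and Zfp36 was the higher of the pair in only 4 of 7 libraries, so these neighbours did not differ beyond their spread. Ier3 lay above Nr4a1 in all 7 libraries, and Nr4a1, which ran from 76.9 to 214 CPM per kilobase, lay above Dusp5, at 73.7 ± 29.9 (SD, n = 7), in 6 of 7. Dusp6, Zfp36l1 and Dusp2 followed at 35.6, 30.8 and 27.3 CPM per kilobase, with Dusp6 above Zfp36l1 in 3 and Zfp36l1 above Dusp2 in 5 of 7 libraries. The lowest on average were Nr4a2 at 14.5 and Nr4a3 at 6.50 CPM per kilobase. Dusp2 lay above Nr4a2 in 5 of 7 libraries, and Nr4a2 above Nr4a3 in all 7.

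**Figure D1:**
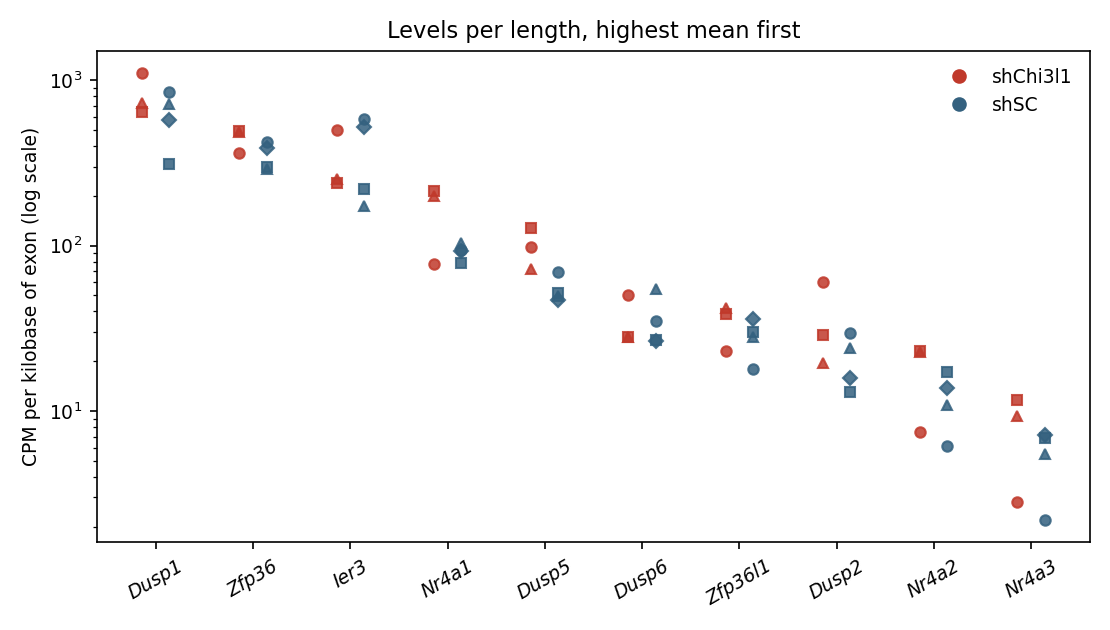
Level of each gene in CPM per kilobase of exon (log axis), genes ordered by their mean over 7 libraries, with shChi3l1 libraries in red on the left and shSC libraries in blue on the right of each gene. Marker shapes give the replicate number (circle 1, square 2, triangle 3, diamond 4); means run from 703 for Dusp1 to 6.50 for Nr4a3.

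Across hairpins, 8 of the 10 genes had a higher and 2 a lower estimate in shChi3l1 macrophages, and none passed the test. Among all tested genes 57.6% had a higher and 42.4% a lower estimate. The median log2 fold change, shChi3l1 over shSC, was 0.48 over the 10 genes and 0.07 over the 15448 tested genes. At an adjusted p of 0.05, edgeR's quasi-likelihood test called none of the 10 and 0% of all genes, with 229 genes at an unadjusted p under 0.05 (0.906% of tested genes higher, 0.576% lower, Dusp5 alone of the 10 in this fit) and a smallest adjusted p of 0.9998. Other fits put other members at an unadjusted p under 0.05 as well, most of them with more genes of all kinds under it. With the replicate block in edgeR, Nr4a3 was at 0.0323, beside 435 of 14950 tested genes under 0.05. With voom, Nr4a1 was at 0.00426 and Zfp36 at 0.0456, beside 713 of 15448 genes. Without shChi3l1 1, edgeR put Nr4a1 and Nr4a2 at 0.00587 and 0.0437, beside 908 of 16174 genes. Without shChi3l1 3, it put Dusp2 at 0.0459, beside 176 of 16202 genes. DESeq2's Wald test called 1 gene, which is not among the 10, and limma's voom called 0. Every one of the 10 genes had an edgeR adjusted p of 0.9998, and their 95% intervals are given below because such a p does not show that levels were alike. Only Dusp5 separated the groups, with each shChi3l1 library above each shSC library, as 1.24% of tested genes did; 0 of the 10 lay below in that way, against 1.25% of tested genes.

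**Figure D2:**
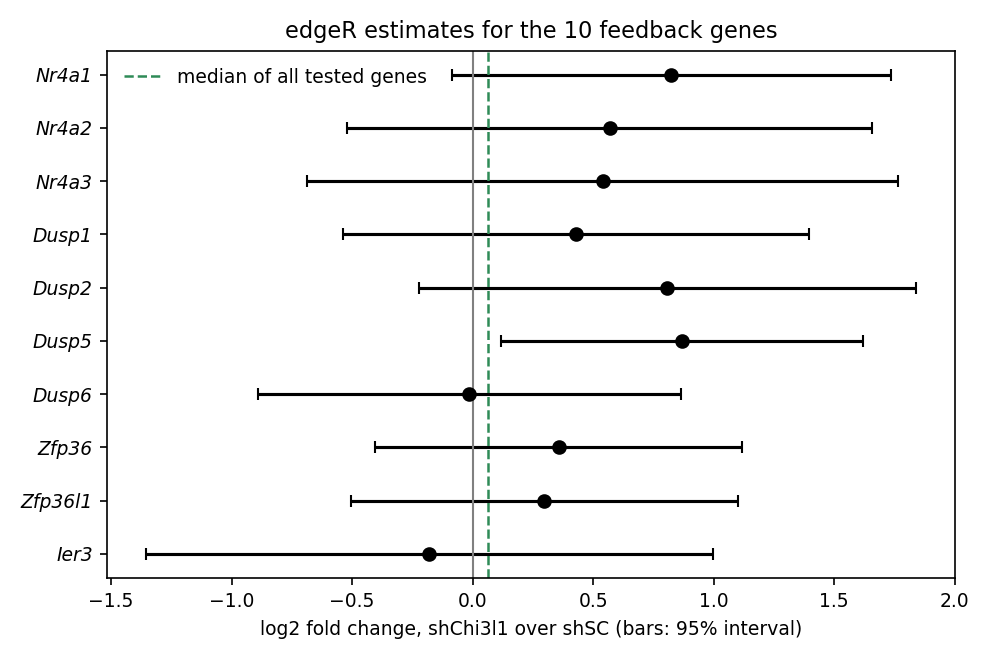
Log2 fold change of each gene, shChi3l1 over shSC, from edgeR (points) with 95% intervals (bars). The dashed line marks the median of all tested genes, 0.07; the interval of Dusp5, from 0.12 to 1.62, is the only one of the 10 that lies above 0.

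Of the phosphatases, Dusp5 encodes a nuclear phosphatase specific for ERK. It had 243, 317 and 178 CPM in shChi3l1 replicates 1, 2 and 3, and 171, 129, 122.9 and 115 CPM in shSC replicates 1 to 4. The lowest shChi3l1 library, replicate 3, lay only just above the highest shSC library, replicate 1. It averaged 246 ± 69.5 CPM over the 3 shChi3l1 libraries and 135 ± 25.1 CPM over the 4 shSC libraries (± SD). Its log2 fold change was 0.87 (SE 0.33), a 1.83-fold higher level with a 95% interval of 1.09 to 3.07, at an unadjusted p of 0.0275 and an edgeR adjusted p of 0.9998. Its unadjusted p was under 0.05 in 10 of 16 alternative analyses, at 0.0199 with the replicate number as a block, and ranged from 0.0204 to 0.120 on leaving out 1 library at a time. The separation depended on scaling and on single libraries. The lowest shChi3l1 and the highest shSC library overlapped with DESeq2 size factors (174 and 182 CPM), and likewise once the scaling was redone without shChi3l1 1 (183 and 189 CPM) or without shSC 3 (176 and 180 CPM). An antisense gene, AC137853.2, overlaps 22.1% of the exon bases of Dusp5. It had 60, 5 and 11 reads in shChi3l1 replicates 1, 2 and 3 and 5 to 22 per shSC library, against 2684 to 10663 reads for Dusp5. The counting settings were not stated, so these numbers do not show how reads in the shared bases were assigned.

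The promoter of Dusp5 is shown because it holds adjoining CArG boxes, the motif bound by serum response factor, which acts with ERK-activated cofactors at primary response genes. It lies at chr19:53529025-53529107 (GRCm38, plus strand, -120 to -38 from the RefSeq start), with the CArG boxes, at -82 and -72, in capitals.
Dusp5: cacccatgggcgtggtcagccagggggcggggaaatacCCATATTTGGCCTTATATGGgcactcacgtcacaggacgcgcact
A CArG box occurred in 1.63% of the 32851 RefSeq promoter windows searched on both strands, each from 250 bases before to 50 after a start. It was found in 2 of the 10 genes, Dusp5 and Zfp36.

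Dusp1 encodes a nuclear phosphatase of p38 and JNK, and a main brake on cytokine production in macrophages. It had 3658, 2122 and 2405 CPM in shChi3l1 replicates 1, 2 and 3, and 2808, 1026, 2373 and 1896 CPM in shSC replicates 1 to 4. Replicate 1 was the highest of its group in both hairpins, shSC 2 stood lowest of all, and the groups overlapped. The log2 fold change was 0.43 (SE 0.43), with a 95% interval for the fold of 0.689 to 2.63. Dusp2, an inducible nuclear phosphatase of ERK and p38 found mainly in blood cells, had 120, 57.6 and 39.1 CPM in shChi3l1 replicates 1, 2 and 3, and 59.2, 26.2, 48.3 and 31.6 CPM in shSC replicates 1 to 4. One library, shChi3l1 1, was far above all others. The log2 fold change of 0.81 (SE 0.46) became 0.18 without that library. Dusp6 encodes a cytoplasmic phosphatase specific for ERK. It had 157, 87.8 and 88.3 CPM in shChi3l1 replicates 1, 2 and 3, and 109, 83.8, 172 and 83.0 CPM in shSC replicates 1 to 4. Each group held one high library and the rest lay between 83.0 and 109 CPM. Its log2 fold change was -0.01 (SE 0.39), and the 95% interval for the fold ran from 0.540 to 1.82.

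Dusp1 had the only full cyclic AMP response element among the 10 promoters. The stretch at chr17:26508573-26508672 (GRCm38, minus strand, beginning at -200 from the RefSeq start) is shown for that element, TGACGTCA at -143, and for a further copy of its core, TGACG, at -191, both in capitals.
Dusp1: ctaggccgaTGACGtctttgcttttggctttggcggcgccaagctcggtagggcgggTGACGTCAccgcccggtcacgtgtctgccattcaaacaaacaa
The full element was in 1.79% of all promoter windows. The core TGACG, which the full element contains in both orientations, was in 6 of the 10 windows (Nr4a1, Nr4a2, Nr4a3, Dusp1, Dusp2 and Dusp5) and in 20.8% of all windows.

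Among the nuclear receptors, Nr4a1, which encodes NUR77, had 270, 750 and 704 CPM in shChi3l1 replicates 1, 2 and 3. Its levels in shSC replicates 1 to 4 were 331, 277, 364 and 326 CPM. In shChi3l1 replicates 2 and 3 it was higher than in every shSC library, and in shChi3l1 replicate 1 lower than in all of them. It averaged 574 ± 265 CPM over the 3 shChi3l1 libraries and 324 ± 35.7 CPM over the 4 shSC libraries (± SD). The log2 fold change was 0.82 (SE 0.40), a fold of 1.77 with a 95% interval of 0.942 to 3.33, an unadjusted p of 0.0711 and an edgeR adjusted p of 0.9998. Nr4a2, encoding NURR1, had 30.1, 93.8 and 92.7 CPM in shChi3l1 replicates 1, 2 and 3, and 24.8, 69.6, 44.2 and 56.2 CPM in shSC replicates 1 to 4. The same shChi3l1 libraries, 2 and 3, were highest, and replicate 1 was lowest in both groups. Its log2 fold change was 0.57 (SE 0.48). Nr4a3, encoding NOR1, had 16.9, 69.6 and 55.5 CPM in shChi3l1 replicates 1, 2 and 3, against 13.2, 41.3, 32.7 and 43.1 CPM in shSC replicates 1 to 4. That order resembled Nr4a2, with replicate 1 again lowest in both groups. Its log2 fold change was 0.54 (SE 0.54), with a 95% interval for the fold of 0.621 to 3.40. Summed over the 3 receptors the level was 317, 913 and 852 CPM in shChi3l1 replicates 1, 2 and 3 and 369 to 440 CPM in shSC libraries, and 71.4% to 89.7% of it came from Nr4a1. The shChi3l1 libraries with the higher NR4A level, 2 and 3, were also those with the higher sums of microglial markers, 1660 and 3716 CPM against 958 CPM in shChi3l1 1, those with more counts in long genes, 20.7% and 18.6% against 12.6%, and those with fewer counts in ribosomal protein genes, 1.92% and 2.73% against 6.06%. They also had lower sums of NK-cell markers, 92.3 and 328 CPM against 1237 CPM. Their neutrophil marker sums were lower as well, 8.82 and 5.81 CPM against 72.2 CPM. In shSC replicates 1 to 4 the NR4A sums were 369, 388, 440 and 425 CPM, beside microglial sums of 1310, 1008, 873 and 754 CPM. Long genes there took 14.8%, 19.9%, 16.8% and 19.8% of counts, and ribosomal protein genes 5.61%, 2.34%, 3.23% and 4.45%. NK-cell marker sums there were 956, 629, 826 and 125 CPM, and neutrophil sums 23.1, 36.4, 13.4 and 23.9 CPM. The order of the shSC libraries by NR4A sum was not that by any of these sums or shares. Library shSC 1, lowest in NR4A sum, had the largest microglial, NK-cell and ribosomal values and the smallest long-gene share. The part of the markers and of these shares in the NR4A levels was not tested.

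The promoters of Nr4a1 and Nr4a3 are shown for repeated elements of the cyclic AMP response type. In Nr4a1 (chr15:101266596-101266845, GRCm38, plus strand, the 250 bases before the RefSeq start) capitals mark TGCGTCA, a sequence chosen after this promoter had been read.
Nr4a1: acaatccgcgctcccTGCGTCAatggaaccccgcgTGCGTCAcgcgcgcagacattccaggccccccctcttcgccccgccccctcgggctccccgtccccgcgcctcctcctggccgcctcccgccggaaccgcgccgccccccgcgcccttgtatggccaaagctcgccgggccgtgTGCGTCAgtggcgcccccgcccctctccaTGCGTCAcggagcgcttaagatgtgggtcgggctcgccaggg
Nr4a3: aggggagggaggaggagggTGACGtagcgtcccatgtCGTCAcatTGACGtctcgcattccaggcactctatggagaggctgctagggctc
In Nr4a3 (chr4:48045055-48045145, GRCm38, plus strand, -250 to -160 from the start) capitals mark the core TGACG on either strand, at -231, -213 and -205. A further copy at -147 lies outside the stretch shown. The window of Nr4a2, not shown, also held repeats of the core, at -200, -144, -123 and -111. TGCGTCA occurred 4 times in the Nr4a1 window, in no other of the 10 and in 2.12% of all windows, and each copy ends in the reverse complement of the core. Of the other motifs searched, an AP-1 site was in 1 of the 10 windows, against 7.81% of all windows. An NF-kB site was in 2 of 10, against 4.51%, and a TATA box in 2 of 10, against 13.6%.

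Of the RNA-binding proteins, Zfp36 encodes tristetraprolin, which destabilises Tnf and other cytokine messages. It had 1255, 1718 and 1694 CPM in shChi3l1 replicates 1, 2 and 3, and 1462, 1037, 1006 and 1351 CPM in shSC replicates 1 to 4. Its spread was the smallest of the 10 genes, the highest library being 1.71 times the lowest, and the groups overlapped through shChi3l1 1. The log2 fold change was 0.36 (SE 0.34), with a 95% interval for the fold of 0.756 to 2.17. Zfp36l1, a paralog with the same tandem zinc fingers, had 68.8, 115 and 125 CPM in shChi3l1 replicates 1, 2 and 3, and 53.5, 90.3, 84.0 and 107 CPM in shSC replicates 1 to 4. As for Nr4a2 and Nr4a3, the lowest library of each group was replicate 1. Its log2 fold change was 0.30 (SE 0.36). Another member of the family, Zfp36l2, averaged 27.5 ± 6.71 CPM over the 3 shChi3l1 libraries and 21.7 ± 4.02 CPM over the 4 shSC libraries (± SD).

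Ier3 had 566, 272 and 285 CPM in shChi3l1 replicates 1, 2 and 3, and 657, 250, 198 and 593 CPM in shSC replicates 1 to 4. Replicate 1 of each hairpin and shSC 4 were high, the other 4 libraries lay at less than 300 CPM, and the groups overlapped throughout. The 3 high libraries were also the 3 with the largest share of counts in ribosomal protein genes (6.06%, 5.61% and 4.45%), whose part in the Ier3 level was not tested. Its log2 fold change was -0.18 (SE 0.52), with a 95% interval for the fold of 0.391 to 1.99.

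**Figure D3:**
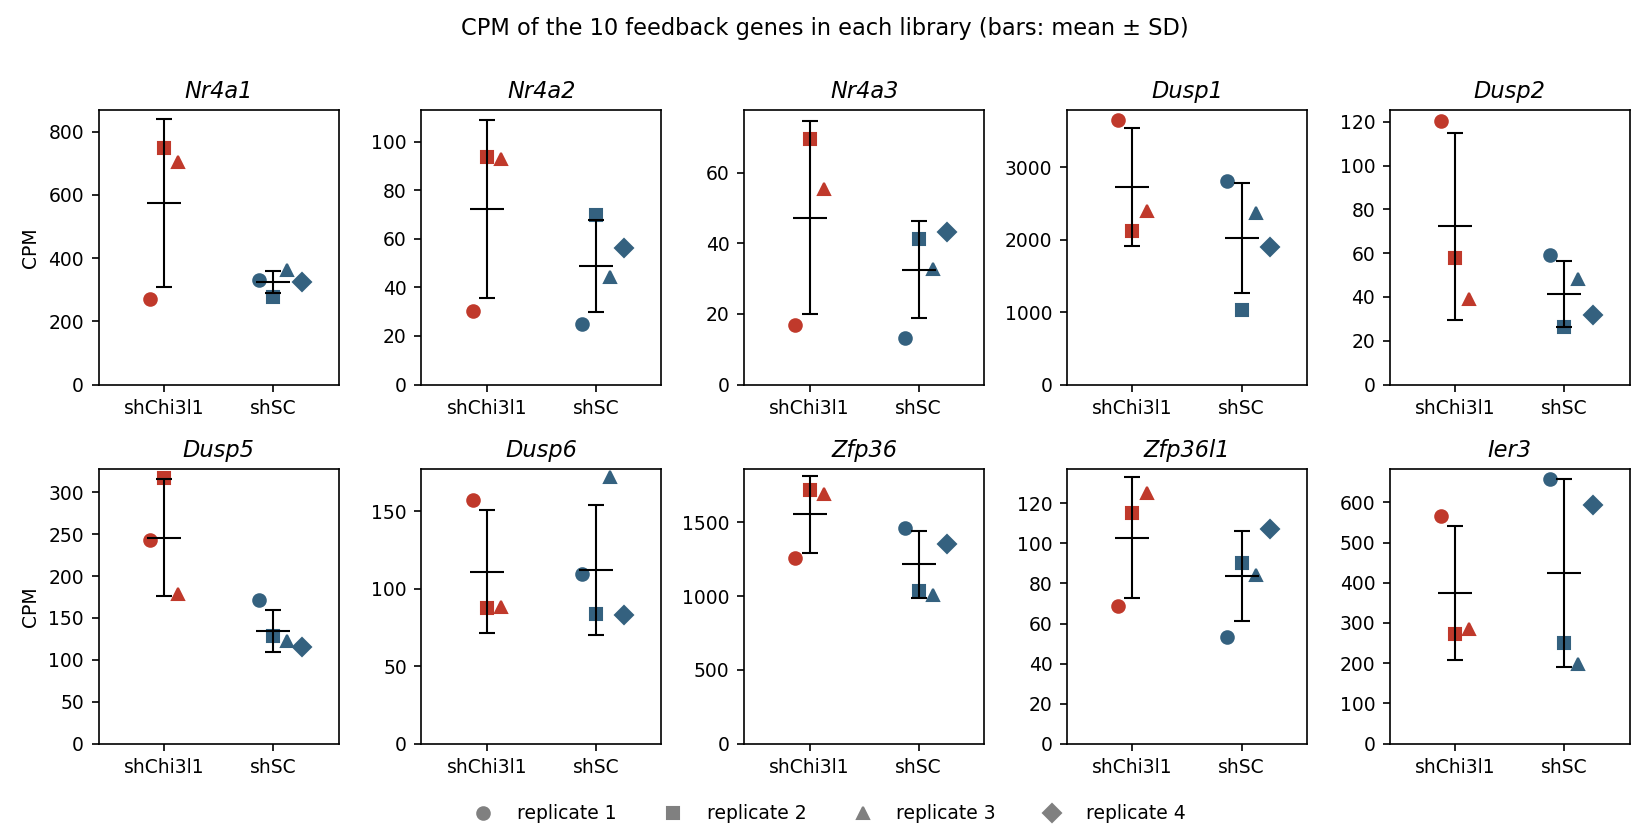
CPM of each gene by library (points, shape by replicate number) with mean ± SD (black bars), shChi3l1 on the left (n = 3) and shSC on the right (n = 4) of each panel. Dusp5 is the only gene without overlap, while Nr4a1 is high in shChi3l1 2 and 3 (750 and 704 CPM) and low in shChi3l1 1 (270 CPM).

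AU-rich elements, the sites that ZFP36 proteins bind, were then counted in the transcripts of the 10 genes themselves. In the longest annotated 3′ UTR of each gene (GENCODE M21), the heptamer TATTTAT was present in 7 of 10, against 27.6% of 20896 protein-coding genes. Their 3′ UTRs were of ordinary length, with 5 of 10 longer than the median of 957 bases. The nonamer TTATTTATT, which contains the heptamer, was in Dusp1, Zfp36 and Zfp36l1, and in 7.62% of all genes. Nr4a1, Dusp5 and Dusp6 held no copy of the heptamer in this annotation. Ier3 had the most copies, 4, in 613 bases. The stretch of 30 bases with the most ATTTA pentamers is given for 4 genes, with the pentamer in capitals, at chr7:28376962-28376991 (minus strand), chr12:80108433-80108462 (minus), chr17:35822477-35822506 (plus) and chr17:26506167-26506196 (minus), all in GRCm38.
Zfp36: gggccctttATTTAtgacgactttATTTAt
Zfp36l1: agcttATTTAacttatcaaaacgtATTTAt
Ier3: tccgtgtctaattaatATTTAtgtATTTAt
Dusp1: ggctcatgggagctggtccttATTTATTTA
A match of these letters is a description and shows no binding.

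The labels call replicates 1 to 3 paired in a figure of the study, without stating what the pairs share. Within these same-numbered replicates, 5 of the 10 genes were higher in shChi3l1 in all 3 pairs and 0 were lower in all 3. Of the tested genes 12.2% were higher in every pair and 10.8% lower. The 5 genes were Nr4a2, Nr4a3, Dusp1, Dusp5 and Zfp36l1. Of the related lists described below, 6 of 14 AP-1 and EGR genes and 4 of 9 cyclic AMP response genes were higher in every pair. So were 4 of 11 other feedback regulators, 6 of 17 decay genes and 4 of 13 cytokine and inflammatory genes. For heat-shock genes the count was 3 of 11, and for kinases 1 of 19. Each of these lists had 0 or 1 gene lower in every pair. Dusp5 differed by 0.50, 1.30 and 0.53 on the log2 CPM scale in pairs 1, 2 and 3, and Nr4a3 by 0.35, 0.75 and 0.76. Nr4a2 differed by 0.28, 0.43 and 1.07. Zfp36l1 had the most even differences, 0.36, 0.35 and 0.57. For Dusp1 the values were 0.38, 1.05 and 0.02, so in pair 3 the libraries hardly differed, and with DESeq2 size factors or upper quartile factors the count was 4 in place of 5. Nr4a1 was lower in shChi3l1 in pair 1 (-0.30) and higher in pairs 2 and 3 (1.44 and 0.95). Zfp36 and Ier3 were likewise lower in pair 1, at -0.22 and -0.21. Dusp2 and Dusp6 were lower in pair 3, at -0.31 and -0.96.

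**Figure D4:**
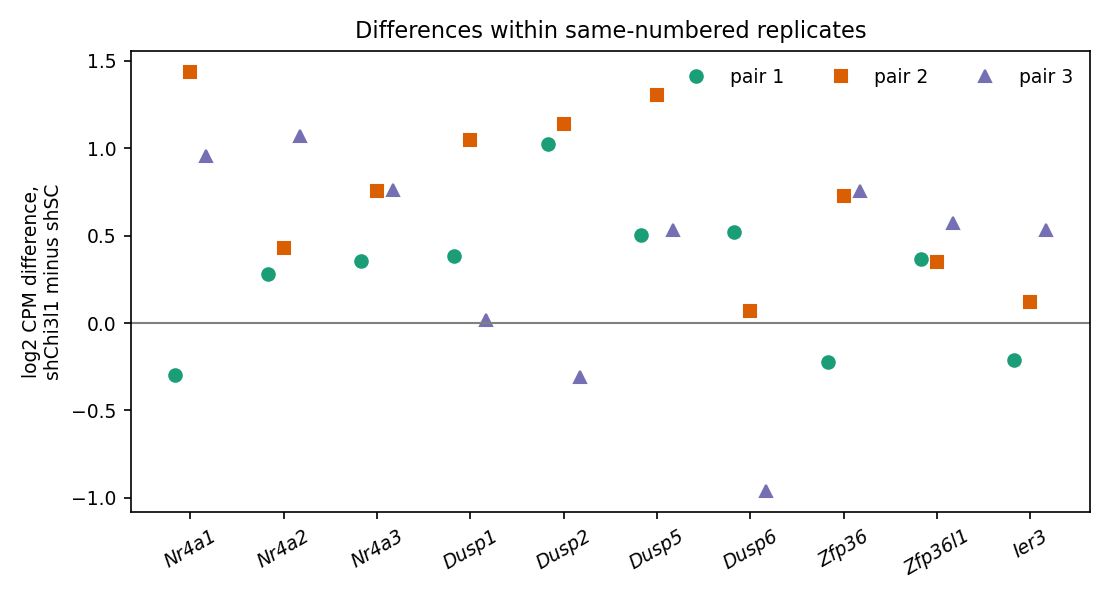
Difference in log2 CPM, shChi3l1 minus shSC, within same-numbered replicates (circle, pair 1; square, pair 2; triangle, pair 3). Points above 0 are higher in shChi3l1. All 3 lie above 0 for Nr4a2, Nr4a3, Dusp1, Dusp5 and Zfp36l1, as for 12.2% of tested genes.

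The 10 genes did not vary as a single block. Likeness was measured as the root-mean-square difference of gene-centred log2 CPM over the 7 libraries, and its median over the 45 pairs of genes was 0.684. It is not scaled for spread, so a gene that hardly varies is near many others: a gene at the same level in every library would lie at 0.287 from Zfp36, 0.403 from Zfp36l1, 0.528 from Dusp1, 0.669 from Dusp2, 0.699 from Nr4a2 and 0.815 from Nr4a3. Nr4a2 and Nr4a3 were the most alike at 0.203, followed by Nr4a2 and Zfp36l1 at 0.345 and Dusp1 and Dusp2 at 0.347. Nr4a3 and Ier3 were the least alike, at 1.33. Nr4a2, Nr4a3 and Zfp36l1 were lower in both replicate 1 libraries than in all of the other 5, and Dusp1 and Dusp2 were higher in both. As shares of the 10 genes these counts stand near the 19.6% and 20.5% of all tested genes that did the same, so in these CPM the replicate 1 pattern is not particular to them. With each library's trend with gene length removed, an alternative added after the data had been seen, Nr4a2, Nr4a3 and Zfp36l1 stayed lowest, as 10.3% of tested genes were, and Dusp1 highest, as 20.2% were, in both replicate 1 libraries, and Dusp2 did not. For the lowest genes, 3 of 10 then stood above the share of all genes, a difference that was not tested. The exon lengths are 5987 bases for Nr4a3, 4059 for Nr4a2, 3509 for Nr4a1, 3470 for Zfp36 and 3311 for Dusp1. They are 3132 for Dusp6, 2990 for Zfp36l1, 2473 for Dusp5, 2003 for Dusp2 and 1131 for Ier3. Dusp1, high in both replicate 1 libraries, is thus longer than Zfp36l1, low in both. The part of exon length in these levels was not tested. The ratio of Dusp1 to Nr4a1 in CPM was 13.6, 2.83 and 3.42 in shChi3l1 replicates 1, 2 and 3 and 8.48, 3.70, 6.53 and 5.82 in shSC replicates 1 to 4.

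**Figure D5:**
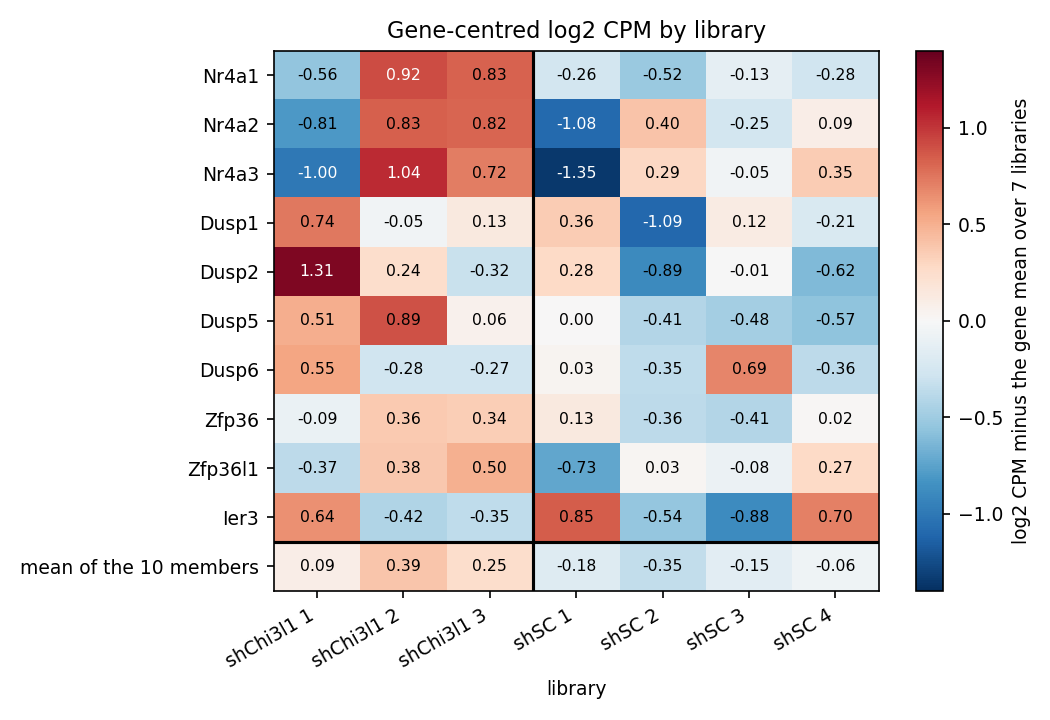
Gene-centred log2 CPM (log2 CPM minus the gene's mean over 7 libraries) for each gene and, in the bottom row, the mean of the 10. Red is above and blue below the gene's own mean; Nr4a2 and Nr4a3 share a pattern that is low in both replicate 1 libraries, whereas Ier3 is high there, at 0.64 and 0.85.

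Averaged over the 10 genes, the centred log2 CPM was 0.09, 0.39 and 0.25 in shChi3l1 replicates 1, 2 and 3 and -0.18, -0.35, -0.15 and -0.06 in shSC replicates 1 to 4. Among 9362 other genes whose log2 CPM averaged 2 or more, the most like this average were Usf2, Alpk1, Slc52a2, Zfx and Acadsb, at root-mean-square differences of 0.104 to 0.129 over 7 libraries, against 0.239 for a gene at the same level in every library. Of the 10 genes themselves only Zfp36, at 0.174, was closer to the average than such a flat gene. The others lay at 0.345 (Zfp36l1) to 0.738 (Nr4a3), so likeness to the average is not likeness to most of the 10. Usf2, which encodes a transcription factor that binds E-box sequences, had 7.96, 10.2 and 9.27 CPM in shChi3l1 replicates 1, 2 and 3 and 6.38, 6.61, 6.96 and 8.73 CPM in shSC replicates 1 to 4.

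Related genes of the same pathways were described beside the 10, and no gene of these 7 lists passed an adjusted p of 0.05 in edgeR's test. Of 14 immediate-early genes of the AP-1 and EGR type, 13 had a higher estimate in shChi3l1 and the median log2 fold change was 0.47, close to that of the 10 feedback genes. Jund, an AP-1 subunit gene, had 24.3, 59.7 and 44.8 CPM in shChi3l1 replicates 1, 2 and 3 and 13.6 to 27.8 CPM in shSC libraries. Egr3 and Egr1, zinc-finger transcription factor genes, were at log2 fold changes of 1.43 (SE 0.55) and 0.87 (SE 0.45). Egr1 had 259, 626 and 881 CPM in shChi3l1 replicates 1, 2 and 3 and 217 to 401 CPM in shSC libraries, so that here too shChi3l1 2 and 3 were the highest. The 9 genes of the cyclic AMP and CREB response had 6 higher estimates and a median of 0.17. Nfil3, a bZIP repressor gene of that list, separated the groups, with 159, 201 and 144 CPM in shChi3l1 replicates 1, 2 and 3 and 60.3 to 108 CPM in shSC libraries (log2 fold change 0.85, SE 0.33). The clock gene Per1 was at 0.70 (SE 0.40) and the kinase gene Sik1 at 0.51 (SE 0.44).

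Other feedback regulators of the MAP kinases, 11 DUSP, Sprouty and Spred genes outside the 10, went both ways, with 5 higher and 6 lower estimates and a median log2 fold change of -0.14. All were scarce, their summed level being 67.5 to 108 CPM in shChi3l1 and 50.1 to 105 CPM in shSC libraries. Dusp8, a phosphatase of p38 and JNK, was at 0.97 (SE 0.74). Spry2 and Spred2, inhibitors of the route to ERK, were at -1.07 (SE 0.91) and -0.59 (SE 0.53). Spry2 had 11.3 CPM in shSC 4, the library with the most tumour and glial markers, against 0.854 to 3.58 CPM in shChi3l1 and 1.10 to 1.98 CPM in the other shSC libraries, and the part of those markers in its level was not tested. The 19 kinases of the MAP kinase cascades had 12 higher and 7 lower estimates and a median of 0.13. Of these, Map2k6 was at -0.53 (SE 0.49) and Mapk14 at 0.35 (SE 0.38).

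Of 17 genes of messenger RNA decay 13 had a higher estimate, with a median log2 fold change of 0.21. The deadenylase gene Cnot8 was at 0.38 (SE 0.32), Zfp36l2 at 0.34 (SE 0.33) and the deadenylase gene Pan2 at 0.35 (SE 0.35). The 13 cytokine and inflammatory genes whose messages carry AU-rich elements had 9 higher and 4 lower estimates and a median of 0.16. Il10 was at -0.96 (SE 0.77), Il6 at 0.80 (SE 0.64) and Ccl2 at -0.86 (SE 0.78), and none of these separated the groups. Heat-shock genes had 7 higher and 4 lower estimates of 11 and a median of 0.83. Their summed level was 2634, 2667 and 4783 CPM in shChi3l1 replicates 1, 2 and 3 and 2322 to 3062 CPM in shSC libraries. Hspa1b, a stress-inducible chaperone gene, had 855 CPM in shChi3l1 3, 74.7 and 106 CPM in shChi3l1 1 and 2, and no more than 158 CPM in shSC libraries. Hspa1a and the co-chaperone gene Dnajb1 were also highest in shChi3l1 3, at 493 and 921 CPM. The median log2 fold change of the 10 feedback genes was 0.47 without shChi3l1 1, 0.30 without shChi3l1 2 and 0.38 without shChi3l1 3. The part of the heat-shock genes in the levels of the 10 was not tested.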

How the data were processed

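The authors deposited 1 table per library of raw read counts, whole numbers for each gene, with exon coordinates and gene length per the file headers. Trim Galore, HISAT2, featureCounts and mm10 are named in the submitters' processing notes; their versions and settings, and the annotation, were not stated there. Per the labels' protocols, a SMART-Seq kit turned 10 ng of RNA into cDNA, of which 1 ng entered Nextera XT library preparation. That chemistry does not mark strand, and PCR copies are not independent molecules, so low input adds noise beyond counting error. Of 55385 gene IDs, 55144 had a symbol in GENCODE M21.

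Groups and replicate numbers came from the sample titles. The genes and lists were chosen with earlier results of these data known. After filterByExpr (minimum count 10) and TMM scaling, all 7 libraries entered 1 quasi-likelihood fit (robust) of edgeR 4.0.16 in R 4.3.3, with hairpin as the only term, F tests and Benjamini-Hochberg adjustment over 15448 genes. CPM use TMM-scaled totals, with 0.5 added to counts before logarithms. Standard errors derive from the F statistic, and 95% intervals from these and the fit's degrees of freedom. Every 2 libraries differed by more than sampling noise: over 21 pairs the smallest chi-square per gene was 138.6.

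The labels call replicates 1 to 3 paired in a figure of the study, without stating a shared day or litter. Deviations from group means correlated at 0.306, 0.26 and 0.188 across genes in pairs 1, 2 and 3, all over 0.1, although shChi3l1 3 with shSC 2 reached 0.322. The replicate block entered as an alternative. Others were DESeq2 1.42.0 size factors and Wald test, upper quartile factors, other count filters, leaving out libraries, voom (limma 3.58.1) with sample quality weights and offsets that remove, per library, a loess trend (span 0.5) with gene length. Text names all 10 genes, the 3 of smallest unadjusted p in each of 7 related lists, and the 5 genes most like the average of the 10; some genes this rule names are not reported here. Of the 10 lists of cell markers the summed levels are given.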

Additional observations from a re-analysis of the deposited data

How the results depend on the processing

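Over 16 alternatives, 152 of 160 log2 fold changes of the 10 genes kept their direction, and none of the 10 genes passed an adjusted p of 0.05 in any (lowest 0.7496). The other 8 belong to Dusp6 and Ier3. Leaving out 1 library at a time gave -0.38 to 0.19 for Dusp6 and -0.66 to 0.061 for Ier3; with shChi3l1 3 and shSC 4 both left out they were 0.0038 and 0.18. With the replicate block, which leaves out shSC 4, Ier3 was at 0.15, and the block changed no call. The cause was not tested. Leave-one-out ranges were 0.58 to 1.13 for Nr4a1, 0.32 to 0.91 for Nr4a2, 0.15 to 0.92 for Nr4a3, 0.12 to 0.60 for Dusp1, 0.18 to 1.10 for Dusp2, 0.64 to 1.06 for Dusp5, 0.20 to 0.45 for Zfp36, 0.10 to 0.49 for Zfp36l1, and 0.30 to 0.54 for the median of the 10.

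The number of genes in which every shChi3l1 library lay above every shSC library, 1 of the 10, was 0 with DESeq2 size factors and 0 to 5 on leaving out 1 library. Without shChi3l1 1 the 5 were Nr4a1, Nr4a2, Nr4a3, Zfp36 and Zfp36l1, beside 10.2% of all genes; without shSC 3 it was 0. With the length trend removed, 1 gene in place of 2 was higher in both replicate 1 libraries. DESeq2's Wald test called 1 gene in place of 0. Genes at an unadjusted p under 0.05 numbered 143 to 908 on leaving out 1 library, 435 with the block and 713 with voom. Without a low-count filter the median of all genes was -0.09. The 10 genes had 372 to 85938 reads per gene and library, and PCR copies among these reads are not independent molecules. How far depth, low input or the spread between 3 and 4 libraries limited these comparisons was not tested.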

Other observations

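The levels of Ier3, highest in shChi3l1 1, shSC 1 and shSC 4, were set beside those of the 13 cytokine and inflammatory genes with AU-rich messages, a comparison chosen after the values had been seen. By the root-mean-square difference of gene-centred log2 CPM over the 7 libraries, a gene at the same level in every library would lie at 0.654 from Ier3, and 4 of the 13 were closer than that, as were 28.7% of 9362 genes. The closest were the chemokine gene Ccl4 at 0.411 and the neutrophil chemokine gene Cxcl2 at 0.423, with 2.49% and 3.20% of the 9362 genes closer still. Ccl4 had 3335, 1836 and 2562 CPM in shChi3l1 replicates 1, 2 and 3, and 2956, 842, 1111 and 3366 CPM in shSC replicates 1 to 4. Tnf was at 0.498 and Ccl2 at 0.506, whereas Ptgs2 and Il23a, at 1.29 and 1.28, were farther from Ier3 than most genes. Libraries are shared by all of these values, so they describe a pattern among 7 libraries and test nothing.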
